A study of Homo sapiens with 9 samples.

Results

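The genes described here are 10 members of the ETS family of transcription factors other than ERG, namely SPDEF, EHF, ELF3, ELF1, ETS1, ETS2, ETV1, ETV4, ETV5 and ETV6. They were taken by gene name from a deposited expression table of 60612 genes, where each of the 10 names was found once. ETS factors bind DNA through a shared winged helix-turn-helix domain that reads a GGAA core, and members differ in the cell types that express them and in whether they activate or repress. SPDEF, EHF and ELF3 are the epithelial members, and SPDEF is known in the prostate and in goblet cells as a factor of secretory luminal cells. In many prostate cancers a gene fusion places ERG, or in some tumours ETV1 or ETV4, under an androgen-responsive promoter.

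VCaP cells were used throughout, an established line from a human prostate cancer that carries the TMPRSS2-ERG fusion. All cells were grown with 10% FBS and harvested 4 days after siRNA transfection. The 3 groups received Control siRNA, KMT2C siRNA#1 or KMT2C siRNA#2 (siRNA 1 and siRNA 2 below), with 3 RNA sequencing libraries each, and the labels give the first group as KMT2C normal and the others as KMT2C deficient. KMT2C encodes a histone H3 lysine 4 methyltransferase that acts at enhancers. The knockdown is transient, a single line was used, and the sources used here do not say whether the 3 libraries of a group came from separate cultures, so the p-values rest on the spread between libraries, which may be only technical.

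Levels are given as FPKM (fragments per kilobase of transcript, scaled to sequencing depth). Differences are log2 fold changes ± standard error (SE) from edgeR's quasi-likelihood test on the counts, with Benjamini-Hochberg adjustment over the 12830 genes that had at least 1 FPKM in at least 3 libraries, and a gene was called at an adjusted p under 0.05. Library totals were 58462215 to 70726213 counts. KMT2C itself was at 12.1 to 13.7 FPKM in control libraries, 1.54 to 2.28 with siRNA 1 and 1.64 to 1.73 with siRNA 2. Mitochondrial genes took 10.2 to 11.1% of counts in control libraries, 8.25 to 9.61% with siRNA 1 and 11.95 to 12.2% with siRNA 2, and the part of this in the results was not tested. All 9 luminal prostate markers examined were expressed, with summed levels of 907 to 973 FPKM in control, 672 to 702 with siRNA 1 and 699 to 723 with siRNA 2. No marker of endothelium (0 of 4), leukocytes (0 of 6) or retina (0 of 4) passed the filter, and the photoreceptor factor CRX was listed at no counts in all 9 libraries.

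Promoter sequences are shown for ETS2 (rose with both siRNAs), SPDEF (moved in opposite directions) and EHF (highest control mean, though its range overlapped SPDEF's). Each is the 250 bases before the RefSeq start on GRCh38.p14, written 5′ to 3′ on the gene's strand, with GGAA, or TTCC where the core lies on the other strand, in capitals. Their positions are chr6:34556330-34556579 (minus strand) for SPDEF, chr21:38804933-38805182 (plus strand) for ETS2 and chr11:34624007-34624256 (plus strand) for EHF.
SPDEF: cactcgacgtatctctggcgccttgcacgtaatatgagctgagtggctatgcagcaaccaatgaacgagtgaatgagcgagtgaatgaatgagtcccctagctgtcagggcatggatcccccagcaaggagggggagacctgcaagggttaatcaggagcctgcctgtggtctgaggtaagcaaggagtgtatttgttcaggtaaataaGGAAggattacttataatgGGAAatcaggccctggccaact
ETS2: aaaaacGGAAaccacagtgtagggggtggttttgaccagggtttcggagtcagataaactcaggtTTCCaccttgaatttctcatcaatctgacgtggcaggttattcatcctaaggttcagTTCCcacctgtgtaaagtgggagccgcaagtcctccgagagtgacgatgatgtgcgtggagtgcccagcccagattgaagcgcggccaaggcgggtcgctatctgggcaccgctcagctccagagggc
EHF: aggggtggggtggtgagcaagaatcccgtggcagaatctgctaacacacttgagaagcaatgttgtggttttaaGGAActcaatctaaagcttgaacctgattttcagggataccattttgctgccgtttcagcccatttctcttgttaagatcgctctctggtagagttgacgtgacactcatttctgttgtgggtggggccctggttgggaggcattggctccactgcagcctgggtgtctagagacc
These windows hold 2 GGAA cores in SPDEF, 3 in ETS2 and 1 in EHF. Across 35114 RefSeq promoter windows of the same length, 92.7% hold GGAA on either strand, with a median of 3, so the core is common. The longer ETS site CCGGAAG, which contains the core, occurs in 8.52% of windows and in none of the 7 members with an entry (SPDEF, EHF, ELF3, ELF1, ETS2, ETV1 and ETV6). A CCAAT box, searched as CCAAT on either strand, lies in 32.0% of windows and occurs 1 time each in SPDEF and EHF and not in ETS2. The SPDEF and EHF windows hold 6 and 4 CpG, below the median window's 11, and that of ETS2 holds 12. The ETV6 window, for comparison, holds 32 CpG and 3 matches to the GC box GGGCGG, which lies in 42.6% of windows. The RefSeq start equals the deposited gene start in ETS2 and ETV6 and lies 4 bases from it in SPDEF. It lies inside the deposited gene by 3164 bases in EHF, 2642 in ELF3, 37034 in ELF1 and 723 in ETV1. The EHF, ELF3, ELF1 and ETV1 windows thus do not precede the deposited start, and all 250 bases of the ELF3 window are annotated as exon. The absence of CCGGAAG therefore describes the windows used, and not the sequence before the deposited start of all 7 members. No methylation, chromatin or binding data were analysed here, and a match describes letters only.

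Of the 10 members, 6 passed the filter (SPDEF, EHF, ELF3, ELF1, ETS2 and ETV6), each with at least 1 FPKM in all 9 libraries. With siRNA 1, 5 of the 6 were called, where 41.7% of all tested genes were. ETS2 and SPDEF rose (21.2% of all tested genes did), and EHF, ELF3 and ELF1 fell (20.5%). With siRNA 2, 5 of the 6 were called against 49.3% of all tested genes, ETS2 rising (24.4% of all tested genes) and SPDEF, EHF, ELF3 and ELF1 falling (24.9%). Falling with both were 3 members (EHF, ELF3 and ELF1), against 12.6% of tested genes, and rising with both was 1 (ETS2), against 13.2%, while 25.9% of tested genes were called in the same direction with both. The median log2 difference of the 6 was -0.18 with siRNA 1 and -0.98 with siRNA 2, beside 0.01 and 0.02 over all tested genes. Both comparisons use the same control libraries. In bulk RNA, fewer cells of a type and less RNA per cell cannot be told apart.

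**Figure D1:**
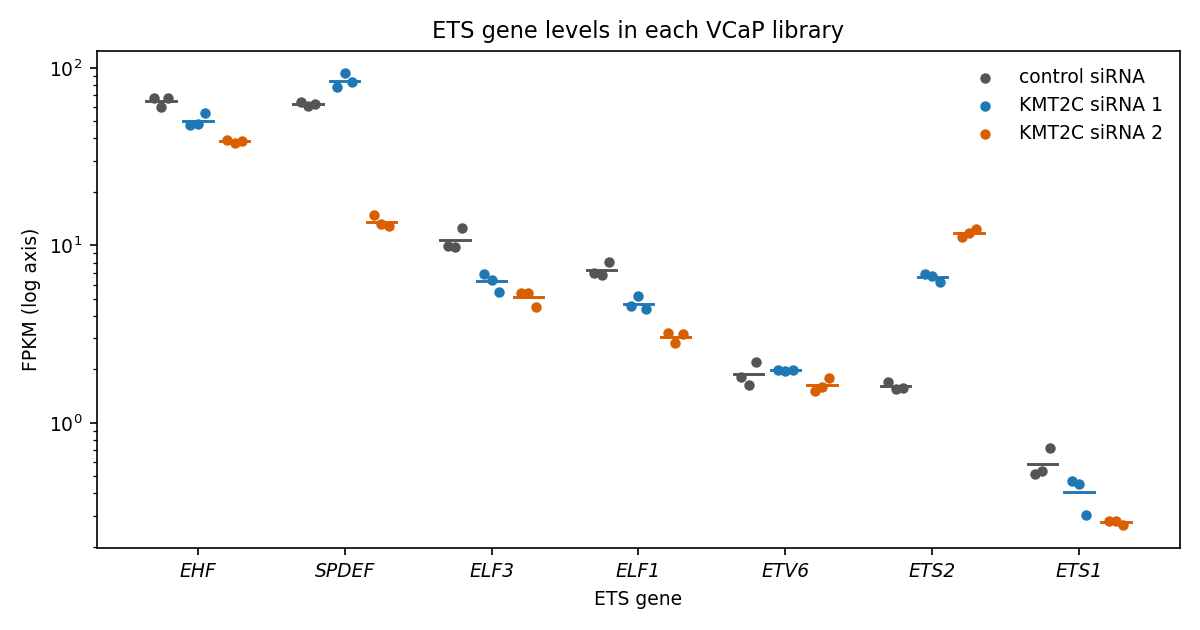
FPKM of the 7 members above 0.2 FPKM in each library on a log axis, by group (control siRNA, KMT2C siRNA 1, KMT2C siRNA 2), with points for libraries and bars for group means. SPDEF sits at 77.9 to 93.1 FPKM with siRNA 1 and 12.9 to 14.9 with siRNA 2, and ETS2 rises from 1.56 to 1.70 in control to 11.2 to 12.3 with siRNA 2.

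SPDEF (ENSG00000124664, chr6:34537802-34556333, minus strand), the prostate-derived ETS factor of secretory epithelium, was at 63.9, 60.9 and 62.3 FPKM in the control libraries. It was at 77.9, 93.1 and 82.8 with siRNA 1, and at 14.9, 13.1 and 12.9 with siRNA 2. The 3 groups did not overlap: siRNA 1 libraries were the highest, siRNA 2 libraries the lowest, and control lay between. Mean levels were 136% of control with siRNA 1 and 21.8% with siRNA 2. The log2 difference from control was 0.41 ± 0.08 (edgeR's quasi-likelihood test, adjusted p = 0.00324) with siRNA 1 and -2.25 ± 0.08 (adjusted p = 3.57e-07) with siRNA 2. SPDEF was thus called in opposite directions, as were 3.24% of tested genes. The difference between the effects was 2.66 ± 0.08 (adjusted p = 7.78e-07), the 87th largest of 12830 in that direction.

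The basal keratin KRT14 followed the same order of groups, at a mean of 2.48 FPKM in control, 7.12 with siRNA 1 and 0.81 with siRNA 2. It was 1 of 4 basal markers that passed the filter, and the summed basal markers ranged over 2.38 to 2.65, 6.29 to 7.86 and 0.847 to 0.953 FPKM, with KRT5 listed at no counts in control and siRNA 2 libraries and TP63 at no more than 0.00715 FPKM in any group mean. Of the fibroblast and smooth muscle markers 2 of 8 passed (LUM and ACTA2). The sum of all 8 ranged over 3.43 to 4.55, 3.04 to 4.71 and 8.94 to 15.3 FPKM. In the same order of groups, LUM had means of 1.24, 0.698 and 9.74 FPKM, and ACTA2 had 2.15, 3.06 and 2.10. COL1A1, DCN and PDGFRB were under 0.5 FPKM in every group mean. The part of the basal, fibroblast and smooth muscle markers in the ETS results was not tested.

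EHF (ENSG00000135373, chr11:34621093-34663288, plus strand), an epithelium-specific factor related to ELF3, was at 67.2, 60.2 and 67.9 FPKM in control libraries. It was at 47.5, 48.1 and 55.7 with siRNA 1 and at 39.3, 37.7 and 38.5 with siRNA 2. All 3 groups were separate, in the order control, siRNA 1, siRNA 2. The log2 difference was -0.39 ± 0.08 for siRNA 1 (adjusted p = 0.00333) and -0.81 ± 0.08 for siRNA 2 (adjusted p = 4.04e-05), and the effects differed by 0.42 ± 0.08 (adjusted p = 0.00246).

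ELF3 (ENSG00000163435, chr1:202007945-202017183, plus strand), which acts in epithelial differentiation and inflammatory responses, was at 9.91, 9.85 and 12.6 FPKM in control. It was at 6.93, 6.40 and 5.47 with siRNA 1 and at 5.38, 5.36 and 4.51 with siRNA 2. Both siRNA groups lay wholly below control, while the lowest siRNA 1 library and the highest siRNA 2 library nearly met. The log2 difference was -0.81 ± 0.13 for siRNA 1 (adjusted p = 0.00166) and -1.14 ± 0.14 for siRNA 2 (adjusted p = 1.72e-04). The effects were not called different (0.33 ± 0.13, 95% interval 0.03 to 0.64, adjusted p = 0.0810). That call changed when control replicate 3 was left out (adjusted p = 0.0475) or when siRNA 1 replicate 3 was (0.43, adjusted p = 0.0415). ELF3-AS1, on the opposite strand and overlapping ELF3, fell by 0.44 (SE 0.08) and by 1.60 (SE 0.08) on the log2 scale. Whether counting used strand is not given in the sources used here, so reads of ELF3 and ELF3-AS1 may not be separated.

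ELF1 (ENSG00000120690, chr13:40931924-41019316, minus strand), a broadly expressed activator, was at 6.97, 6.78 and 8.03 FPKM in control. It was at 4.53, 5.17 and 4.35 with siRNA 1 and at 3.19, 2.80 and 3.18 with siRNA 2. The groups did not overlap, and siRNA 2 libraries were the lowest. The log2 difference was -0.66 ± 0.11 for siRNA 1 (adjusted p = 0.00146) and -1.30 ± 0.11 for siRNA 2 (adjusted p = 2.13e-05), and the effects differed by 0.65 ± 0.11 (adjusted p = 0.00167). WBP4, a spliceosome gene on the opposite strand that shares exon sequence with ELF1 in GENCODE release 29 though not in the deposited coordinates, rose by 0.77 ± 0.12 and 1.39 ± 0.12 on the same scale.

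ETS2 (ENSG00000157557, chr21:38805183-38824955, plus strand), a factor phosphorylated downstream of RAS and ERK, was the member that rose with both siRNAs. It was at 1.70, 1.56 and 1.57 FPKM in control, at 6.88, 6.73 and 6.24 with siRNA 1 and at 11.2, 11.7 and 12.3 with siRNA 2. Every siRNA 1 library exceeded every control library, and every siRNA 2 library exceeded every siRNA 1 library. The log2 difference was 2.01 ± 0.08 (4.04-fold, adjusted p = 1.65e-06) with siRNA 1 and 2.81 ± 0.08 (6.99-fold, adjusted p = 1.81e-07) with siRNA 2, the 67th largest rise among 12830 genes in each comparison. The siRNA 1 effect was smaller by 0.79 ± 0.07 (edgeR, difference -0.79, adjusted p = 7.16e-05). ETS2 lies 143 kb from ERG on chromosome 21 in the reference coordinates. VCaP carries the TMPRSS2-ERG fusion, and the arrangement of this region in these cells was not examined. ERG fell from 63.0 to 65.7 FPKM in control to 32.8 to 33.9 with siRNA 1 and 30.2 to 33.4 with siRNA 2, and its effects were not called different (0.08 ± 0.05, 95% interval -0.04 to 0.20, adjusted p = 0.260).

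ETV6 (ENSG00000139083, chr12:11649674-11895377, plus strand), a repressor whose gene is fused to others in leukaemia, was at 1.82, 1.64 and 2.21 FPKM in control. It was at 1.98, 1.97 and 1.99 with siRNA 1 and at 1.51, 1.60 and 1.78 with siRNA 2. The control range overlapped both siRNA groups, while the siRNA groups did not overlap each other. The difference was 0.04 ± 0.12 with siRNA 1 (95% interval -0.24 to 0.33, adjusted p = 0.823) and -0.27 ± 0.12 with siRNA 2 (-0.55 to 0.02, adjusted p = 0.110), neither called. The effects differed by 0.31 ± 0.12 (0.02 to 0.59), which was not called (adjusted p = 0.0833) but was when control replicate 3 was left out (adjusted p = 0.0358).

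**Figure D2:**
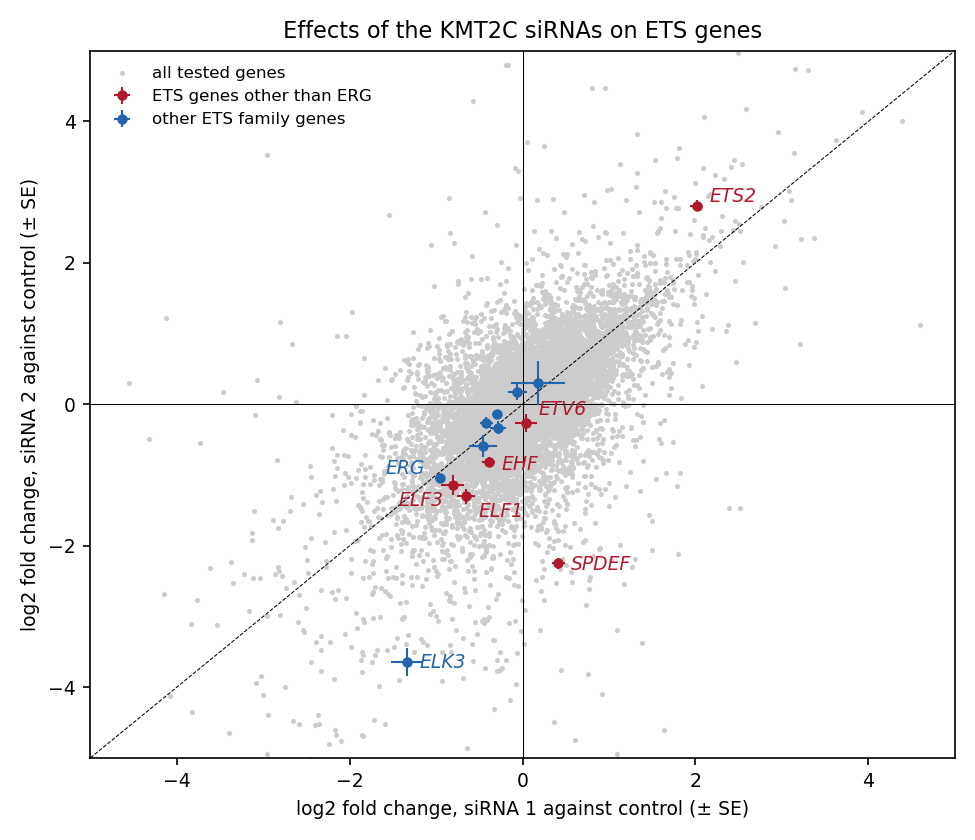
Log2 fold change with siRNA 1 (x axis) against siRNA 2 (y axis) for all tested genes in grey, the 6 tested members in red and 8 further ETS family genes in blue, with SE bars, from edgeR. The dashed line marks equal effects. Both axes end at 5 in either direction, which leaves 44 genes out, and the 2 comparisons share their controls. ETS2 lies in the upper right, SPDEF in the lower right, and EHF, ELF3 and ELF1 in the lower left.

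The other 4 members were below the filter. ETS1 (ENSG00000134954, chr11:128458761-128587558, minus strand), the closest relative of ETS2, was at 0.514, 0.535 and 0.717 FPKM in control. It was at 0.472, 0.451 and 0.301 with siRNA 1 and at 0.280, 0.280 and 0.265 with siRNA 2, from 151 to 431 counts a library. The siRNA 2 libraries lay below every other, and the siRNA 1 libraries all lay below control. Fitted with no filter, ETS1 differed by -1.18 ± 0.23 for siRNA 2 (adjusted p = 0.00406) and by -0.54 ± 0.22 for siRNA 1 (adjusted p = 0.160), and the effects were not called different (0.64 ± 0.22, adjusted p = 0.0958). ETS1 and ETS2 thus moved in opposite directions with siRNA 2.

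ETV1, ETV4 and ETV5 form the PEA3 subfamily. ETV5 (ENSG00000244405, chr3:186046314-186110318, minus strand) had 12, 12 and 26 counts in control, 28, 27 and 16 with siRNA 1 and 12, 11 and 7 with siRNA 2. The control range met both siRNA groups, whose own ranges did not overlap, and a fragment was taken as about 4 counts. ETV1 (ENSG00000006468, chr7:13891229-13991425, minus strand) had no counts in control, 3 counts in 1 siRNA 1 library and 33, 0 and 15 counts with siRNA 2. ETV4 (ENSG00000175832, chr17:43527844-43546340, minus strand) had 11 counts in 1 siRNA 1 library and none in the other 8. A count of 0 over the control libraries allows up to 0.0610 CPM (counts scaled to an equal library total; 3 fragments of about 4 counts over the group, counting error only). ETV4 overlaps DHX8 on the opposite strand and ETV5 overlaps DGKG on the same strand, so their few counts may be shared. No fold is given for these genes, and a difference was not detectable at this depth.

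By level per transcript length, EHF (65.1 ± 4.25 FPKM, SD, n = 3) and SPDEF (62.4 ± 1.53) led in control with overlapping ranges, beside ERG at 63.9 ± 1.52. ELF3 (10.8 ± 1.55) and ELF1 (7.26 ± 0.675) came next, then ETV6 (1.89 ± 0.292) and ETS2 (1.61 ± 0.0792), whose ranges overlapped, then ETS1 (0.589 ± 0.111). With siRNA 1 SPDEF came first (84.6 ± 7.78) and EHF second (50.4 ± 4.60). ETS2 (6.62 ± 0.335) came after them and overlapped ELF3 (6.27 ± 0.738). With siRNA 2 EHF came first (38.5 ± 0.814), and ETS2 (11.7 ± 0.569) stood close to SPDEF (13.6 ± 1.08), with no overlap.

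Summed over the 10 genes, the level was 149.7 ± 7.23 FPKM in control, 155.0 ± 8.10 with siRNA 1 and 73.9 ± 1.65 with siRNA 2 (SD, n = 3). Control and siRNA 1 libraries overlapped, and every siRNA 2 library was below them. SPDEF made up 41.7% ± 1.50 of the sum in control, 54.5% ± 2.58 with siRNA 1 and 18.4% ± 1.08 with siRNA 2. EHF made up 43.5% ± 0.838, 32.6% ± 2.91 and 52.1% ± 0.310 in that order, and ETS2 1.08% ± 0.0586, 4.28% ± 0.380 and 15.9% ± 1.02. The similar sums of control and siRNA 1 libraries thus held different proportions of the members.

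**Figure D3:**
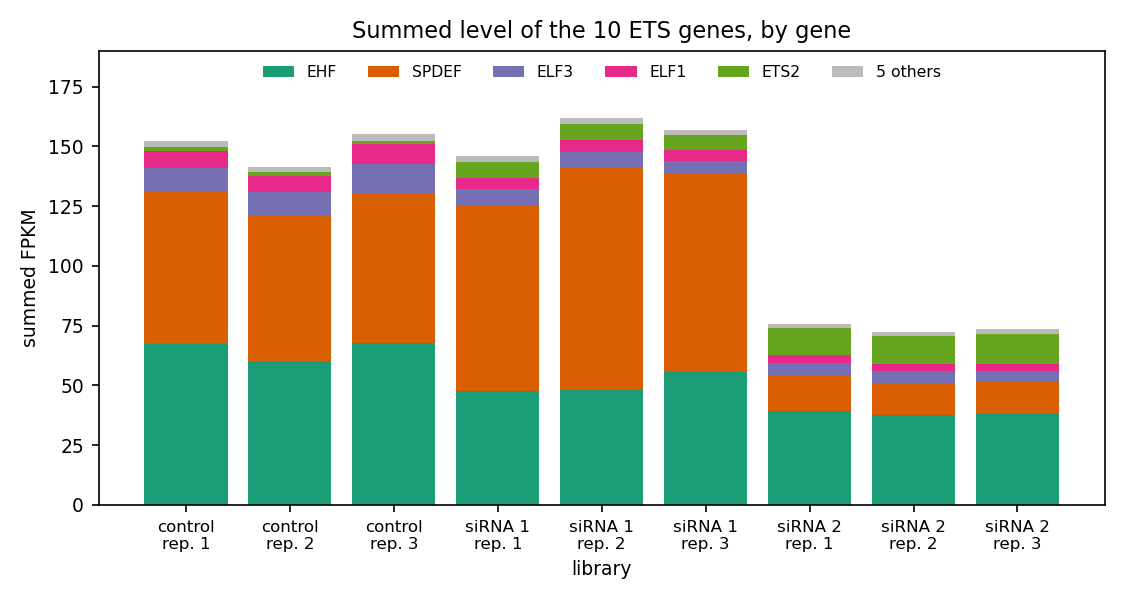
Summed FPKM of the 10 ETS genes in each of the 9 libraries, stacked by gene from a baseline of 0. The siRNA 2 bars reach 72.5 to 75.7 FPKM and the others 141.5 to 162.0, and the SPDEF segment is widest with siRNA 1.

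Averaged over both siRNAs, 5 of the 6 tested members were called (47.5% of all tested genes), ETS2 higher (23.0% of all tested genes) and SPDEF, EHF, ELF3 and ELF1 lower (24.5%). For SPDEF that average joins a rise and a fall. The siRNAs differed from each other for 4 of the 6 members (39.5% of all tested genes): SPDEF, EHF and ELF1 were higher with siRNA 1 (20.6%), and ETS2 was lower with it (18.9%).

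Among 18 further ETS family genes, 8 passed the filter, of which ELK3 did so through its control libraries alone and is left out of the counts. With siRNA 1, 5 of the other 7 fell and 0 rose, where 20.5% of all tested genes fell and 21.2% rose. With siRNA 2, 4 fell and 0 rose, where 24.9% fell and 24.4% rose. These shares keep tested genes that, like ELK3, passed the filter through a single group. Their median log2 difference was -0.30 and -0.26. ERG, ETV3, ELF2 and ERF fell with both. ELK3, a partner of serum response factor, was at 1.67, 1.71 and 1.51 FPKM in control, 0.583, 0.748 and 0.627 with siRNA 1 and 0.170, 0.118 and 0.114 with siRNA 2. The groups did not overlap, and its log2 differences were -1.34 and -3.65, given as a description because a gene that enters through the group where it is high had to differ. The repressors ETV3 (-0.42 and -0.26) and ERF (-0.28 and -0.33) and the ELF1 relative ELF2 (-0.46 and -0.59) were the others. ELK4 fell with siRNA 1 (-0.30) and was not called with siRNA 2 (-0.14, edgeR, adjusted p = 0.0774). GABPA (-0.06 ± 0.11 and 0.17 ± 0.11) and ELK1 (0.18 ± 0.31 and 0.30 ± 0.31) were called with neither. ELK1 was at 14.1, 7.29 and 13.7 FPKM in control, 15.0, 10.0 and 15.3 with siRNA 1 and 17.8, 9.70 and 17.4 with siRNA 2. Replicate 2 was thus its lowest library in each group, and the wide SE includes that spread.

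Of 16 partners and regulators of ETS factors, 14 were tested. With siRNA 1, 1 rose and 7 fell, and with siRNA 2, 2 rose and 1 fell, with median differences of -0.28 and -0.025. Over all tested genes 21.2% rose and 20.5% fell with siRNA 1, and 24.4% rose and 24.9% fell with siRNA 2. The 7 of 14 falling with siRNA 1 were thus above the share over all tested genes, and the other counts were below theirs. GABPB2, a partner subunit of the ETS factor GABPA, rose with both (0.45 and 0.82). GABPB1, also a partner subunit and named for comparison, was called with neither (-0.08 and -0.19). Its control mean was 4.06 FPKM, against 1.14 for GABPB2. CIC, the repressor of the PEA3 genes, fell with both (-0.47 and -0.22). In the direct comparison 9 of the 14 were lower with siRNA 1 and 0 were higher, where 18.9% of all tested genes were lower. Of 12 ERK feedback and CIC-repressed genes, 5 were tested. DUSP5 passed the filter through its siRNA 2 libraries alone (2.37, 2.38 and 1.34 FPKM, against 0.604 to 0.898 in the others) and is left out of the counts. Of the other 4, 1 rose and 1 fell with each siRNA, near the overall shares of 21.2% and 20.5% with siRNA 1 and 24.4% and 24.9% with siRNA 2. Their median difference was -0.11 and 0.34. DUSP4, an ERK phosphatase gene, rose with both siRNAs (1.01 and 1.30), and SPRED2, an inhibitor of RAS signalling, fell with both (-0.84 and -2.79).

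Of 18 secretory and epithelial genes linked to SPDEF, EHF and ELF3, 15 were tested. With siRNA 1, 9 fell and 1 rose, where 20.5% of all tested genes fell and 21.2% rose. The 9 include CLDN4 (-4.33 ± 1.36, edgeR, adjusted p = 0.0327), whose control libraries varied widely (mean 22.5 FPKM, SD 31.0). Its control replicate 2, at 0.954 FPKM, lay within the siRNA 1 range of 0.330 to 2.54, so the CLDN4 fall is uncertain. With siRNA 2, 11 fell and 1 rose, where 24.9% fell and 24.4% rose, and 8 fell with both against 12.6% of all tested genes. The list was chosen with earlier results of these data known, so these counts are a description. The median difference was -1.04 with siRNA 1 and -0.83 with siRNA 2. Among those 8, TMPRSS2, the serine protease whose promoter drives the ERG fusion, was at 94.4 to 98.1 FPKM in control, 18.5 to 19.8 with siRNA 1 and 42.5 to 43.3 with siRNA 2. AGR2, a disulfide isomerase of secretory cells, was at 47.0 to 53.0, 7.89 to 8.82 and 7.38 to 8.16. KLK3, which encodes prostate-specific antigen, was at 55.8 to 88.7, 7.97 to 9.94 and 2.75 to 3.89, and the transporter gene SLC45A3 was at 29.5 to 35.9, 8.62 to 10.9 and 10.6 to 11.0. These 4 were picked from genes that fell with both siRNAs, so their fall with siRNA 1, where SPDEF rose, follows from that choice. CREB3L4, chosen after its values were seen, had the order of SPDEF, at 11.9 to 14.2 FPKM in control, 20.2 to 24.0 with siRNA 1 and 6.68 to 8.98 with siRNA 2.

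**Figure D4:**
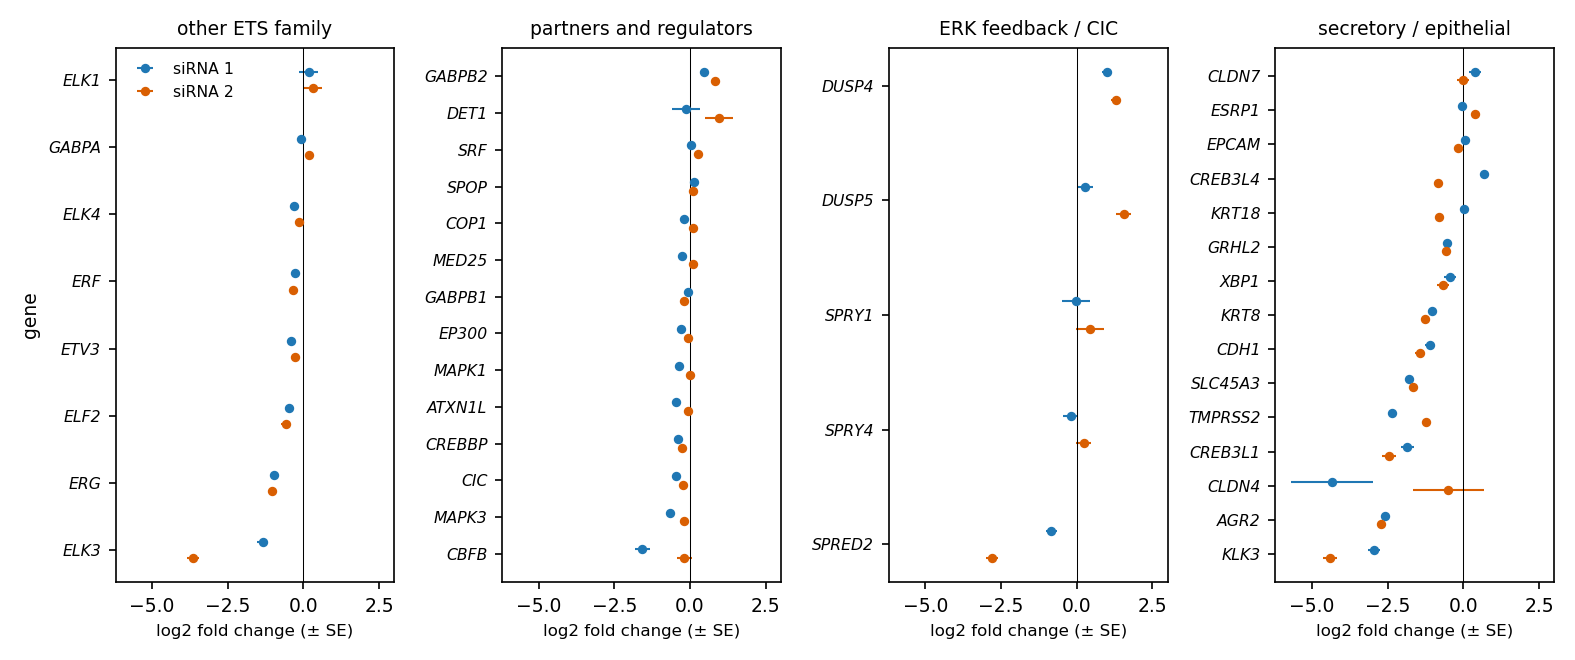
Log2 fold change ± SE from edgeR with siRNA 1 and with siRNA 2 for the tested genes of 4 lists (further ETS family genes, partners and regulators, ERK feedback and CIC-repressed genes, secretory and epithelial genes). ELK3 lies at -1.34 and -3.65, SPRED2 at -0.84 and -2.79, and CLDN4 has the longest bars.

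The tested genes most like each member over the 9 libraries, by Pearson's r of log2 CPM, are a description, since the 9 points are 3 groups and share their libraries. SPDEF was nearest to SRPRA (r = 0.998), a subunit gene of the signal recognition particle receptor, and to GJB1 (0.997), a gap junction gene. EHF was nearest to FOLH1 (0.996), which encodes prostate-specific membrane antigen, and AIDA (0.994). An r compares the pattern over libraries and not the size of change. With siRNA 1, then siRNA 2, the log2 differences were -0.39 and -0.81 for EHF, -0.54 and -1.12 for FOLH1 and -1.86 and -3.79 for AIDA. ELF3 was nearest to PACSIN2 (0.990) and TMSB4X (0.986), ELF1 to CNKSR3 (0.995) and SLC44A2 (0.995), ETS2 to ZNF542P (0.998) and INTS3 (0.996), and ETV6 to THAP10 (0.944) and PSMD3 (0.926). SRPRA went from 57.3 FPKM in control to 67.5 with siRNA 1 and 17.6 with siRNA 2, and GJB1 from 9.47 to 13.0 and 1.95, the group order of SPDEF.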

How the data were processed

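RNA from VCaP cells was sequenced in 9 libraries, 3 per group by treatment label. The single deposited table gives, per the file headers, a count and an FPKM value per gene and library. The count columns are whole expected counts that the authors deposited, not normalized, and rounding them changed no value. Among low counts 4 was the most common (11286 values, against 6621 at 1, 5430 at 2 and 4677 at 3), so a fragment was taken as about 4 counts, which is approximate. The authors' FPKM values put genes that have no counts at 0.0001. The submitters' processing notes name Bowtie 0.12.2, hg38 and mm8, giving no role. The counting tool, the strand setting and the annotation's version: not given in the sources used here. GENCODE release 29 holds 58394 of the identifiers and 72.7% of these share start and end, so coordinates are on GRCh38. The series text describes retinal RNA, while the labels give VCaP cells only.

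The 12830 genes that reached 1 FPKM in 3 or more libraries were fitted with edgeR 4.0.16 (R 4.3.3), with TMM scaling, the quasi-likelihood F test, 1 mean per group over all 9 libraries and Benjamini-Hochberg adjustment at 0.05, 2-sided. The design allowed for counts or FPKM, and counts were found. The SE is the size of the log2 fold change over the square root of F, and 95% intervals use the fit's degrees of freedom. The fit was also run on counts simulated from its own model, with the same changes planted in both siRNA groups. That run could not check how well differences between the siRNAs are recovered. No 2 libraries held identical values. Libraries with the same replicate number did not deviate together (correlations of -0.07 to 0.04 over 9 pairs), so the numbers were not taken to pair the samples. Alternatives were DESeq2 size factors or upper-quartile scaling in edgeR, DESeq2 1.42.0, limma 3.58.1 on log2(FPKM + 1) and log2(FPKM + 0.1), no filter, filterByExpr, counts divided by 4, a replicate block, and each library left out.

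The members and lists were chosen with earlier results of these data known, so their counts beside the shares over all tested genes are a description. Named genes are the 10 members, the tested ETS relatives, and from each other list those called with both siRNAs, or, where more than 4 were, the 4 lowest in adjusted p for the siRNA average. KMT2C and ERG were taken as checks, and for each tested member the 2 genes most like it, leaving out clone identifiers. Promoters come from RefSeq (GRCh38.p14), where 7 of the 10 members matched. Genes that reached 1 FPKM in the libraries of a single group were left out of list counts, a choice made after seeing the data. The shares over all tested genes keep such genes, so counts and shares differ in this. Motifs were counted on both strands.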

Additional observations from a re-analysis of the deposited data

Results flagged for a closer look

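For 4 of the 6 tested ETS genes the effects of the siRNAs differed by edgeR's quasi-likelihood test of siRNA 1 against siRNA 2 over all 12830 genes. The effect of siRNA 1 minus that of siRNA 2 was 2.66 for SPDEF on the log2 scale (adjusted p = 7.78e-07), a rise with siRNA 1 and a fall with siRNA 2 in all 3 libraries of each group. It was 0.42 for EHF (adjusted p = 0.00246) and 0.65 for ELF1 (adjusted p = 0.00167), which fell with both siRNAs and further with siRNA 2. It was -0.79 for ETS2 (adjusted p = 7.16e-05), which rose with both and further with siRNA 2. Across all tested genes, 39.5% differed between the siRNAs.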

How the results depend on the processing

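Under the alternatives run, the number of ETS genes called was 5 of 6 tested with siRNA 1, with siRNA 2 and for the average. With no filter 10 were tested and with filterByExpr 8, and 5 were called with siRNA 1 and 6 with siRNA 2 and for the average, ETS1 being the addition. Between the siRNAs 4 were called under every alternative that kept all libraries, and 4 to 6 of 6 with single libraries left out. With the replicate block the counts were 5, 5, 5 and 4, as without it, and the block changed no call among the 6 genes. ETV6, which was called in neither comparison with control, ranged with single libraries left out from -0.048 (without control replicate 2) to 0.18 (without control replicate 3) for siRNA 1, and from -0.20 to 0.024 (without the same libraries) for the average, changing sign at -0.048 and at 0.024, and the cause was not tested. With 3 libraries per group and no stated strand setting, small differences in ETV6, ETS1 and the PEA3 genes are limited by depth and spread.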

Other observations

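In the stretch between ERG and TMPRSS2, the fusion partners on chromosome 21, 11 genes passed the filter, ETS2 among them. The stretch is that of the reference coordinates, and its arrangement in VCaP cells was not examined. The stretch was chosen after values were seen, so the log2 differences (siRNA 1, then siRNA 2) are a description with no test. ETS2 had the highest of the 11 with each siRNA (2.01 and 2.81), and PSMG1, a proteasome assembly chaperone gene, was next in this stretch with siRNA 1 (0.51 and 0.29). BRWD1, a bromodomain gene, had -0.59 and -1.01, and HMGN1, a nucleosome-binding protein gene, had -0.17 and -0.39. PCP4 had -0.35 and -0.92, GET1 had -0.33 and -0.74, and BRWD1-AS2 had 0.22 and 0.61. IGSF5 had 0.21 and -2.65. B3GALT5, its antisense gene B3GALT5-AS1 and FAM3B were above 1 FPKM in control libraries alone. B3GALT5 was at 1.60 to 9.39 FPKM in control, 0.477 to 0.570 with siRNA 1 and 0.119 to 0.131 with siRNA 2. B3GALT5-AS1 was at 1.37 to 2.39, 0.0550 to 0.140 and 0.0287 to 0.0405 FPKM in that order, and FAM3B was at 2.57 to 4.01, 0.192 to 0.484 and up to 0.0373 FPKM.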
